A study of Homo sapiens with 4 samples.

Results

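The mitotic kinases AURKA, AURKB, PLK1 and NEK2, the proteins that switch them on and the other subunits of the chromosomal passenger complex were followed in MDA-MB-231, an established line of human triple-negative breast cancer cells. The 10 genes were taken by name (PLK1, AURKA, AURKB, NEK2, TPX2, BORA, GTSE1, INCENP, CDCA8 and BIRC5), and each matched 1 human Ensembl gene ID among the 20263 of the count table. The treated group received RB-1 for 24 h, a compound known here by its code name, which the title of the series calls a ribociclib derivative (ribociclib blocks CDK4 and CDK6, the kinases of G1 progression). The other group received the solvent DMSO. Both groups grew in DMEM with fetal bovine serum and antibiotics, and no dose of RB-1 is given in the labels. Each group had 2 libraries. Nothing in the labels tells whether the 2 were grown apart, and p-values therefore measure only the spread between these libraries, which may be technical.

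Entry into mitosis and the building of the spindle are driven by a small set of protein kinases. Aurora A works at the centrosomes and spindle poles, where TPX2 holds it in its active form on microtubules, and together with its cofactor Bora it phosphorylates and activates Polo-like kinase 1. Aurora B works at the inner centromere and later at the midzone as the enzyme of the chromosomal passenger complex, in which INCENP is the scaffold and Borealin (CDCA8) and Survivin (BIRC5) form the targeting part. Transcripts of most of these genes are scarce in resting and G1 cells and accumulate in G2, under regulators that act through CCAAT boxes, bound by NF-Y, and through the cell cycle homology region, a TTTGAA-like element bound by LIN54 of the MuvB complex.

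In RB-1 cells 5 of the 10 transcripts fell and none rose (edgeR, adjusted p under 0.05), against 16.1% lower and 12.8% higher among all genes tested. Those that fell were TPX2, BORA, NEK2, INCENP and AURKA, by 1.59-fold to 2.99-fold. PLK1 lay at the threshold without passing it, AURKB and GTSE1 had lower values that did not pass, and CDCA8 and BIRC5 differed by less than their error. Within the passenger complex the scaffold INCENP fell while no other subunit passed the test, although AURKB passed once trends along length and GC content were removed.

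Promoter sequence was available from RefSeq (build GRCh38.p14) for 7 of the 10 genes, as windows from 250 bases before to 50 bases after the annotated start. The 250 bases before the start are shown for 2 genes that fell, INCENP and NEK2, for PLK1 at the threshold, and for CDCA8, which did not pass, so that genes with and without a call can be read side by side. They are written 5′ to 3′ along the gene. Capitals mark the element TTTGAA where it was found, the related TTTAAA, and the CCAAT box. A match on the other strand appears as its reverse complement, which for the CCAAT box is ATTGG. The INCENP window is chr11:62123761-62124010 on the plus strand and that of NEK2 chr1:211675622-211675871 on the minus strand. That of PLK1 is chr16:23678639-23678888 and that of CDCA8 chr1:37692266-37692515, both on the plus strand. The RefSeq starts used differ from the GENCODE gene starts printed further below. By the GENCODE coordinates the PLK1 window lies inside its gene, and each of the other windows shown lies partly inside its gene.
INCENP: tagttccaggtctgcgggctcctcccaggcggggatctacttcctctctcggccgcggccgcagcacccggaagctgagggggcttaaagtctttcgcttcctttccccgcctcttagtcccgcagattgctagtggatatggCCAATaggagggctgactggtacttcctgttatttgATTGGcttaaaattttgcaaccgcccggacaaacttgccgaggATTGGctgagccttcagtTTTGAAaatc
NEK2: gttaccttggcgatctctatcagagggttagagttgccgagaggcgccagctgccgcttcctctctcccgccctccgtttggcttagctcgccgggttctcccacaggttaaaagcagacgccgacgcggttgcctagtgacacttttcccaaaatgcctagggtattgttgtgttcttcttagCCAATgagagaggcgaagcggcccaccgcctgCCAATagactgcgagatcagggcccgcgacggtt
PLK1: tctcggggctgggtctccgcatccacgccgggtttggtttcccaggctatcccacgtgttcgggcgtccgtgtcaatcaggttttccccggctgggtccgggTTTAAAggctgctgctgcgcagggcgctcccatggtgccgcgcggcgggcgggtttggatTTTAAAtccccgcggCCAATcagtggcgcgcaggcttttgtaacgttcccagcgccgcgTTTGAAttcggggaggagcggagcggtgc
CDCA8: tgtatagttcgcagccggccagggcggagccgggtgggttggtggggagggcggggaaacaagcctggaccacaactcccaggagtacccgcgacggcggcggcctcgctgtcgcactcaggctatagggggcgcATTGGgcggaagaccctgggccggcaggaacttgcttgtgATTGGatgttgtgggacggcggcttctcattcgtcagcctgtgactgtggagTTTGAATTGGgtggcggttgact

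CCAAT on either strand was found in the whole 300-base windows of all 7 genes (BORA, PLK1, NEK2, GTSE1, AURKB, INCENP and CDCA8), against 35.7% of the 27305 RefSeq windows of the same length. TTTGAA on either strand was found in 5 of the 7, namely BORA, PLK1, GTSE1, INCENP and CDCA8, against 15.4% of all windows. TTTAAA, which reads the same on both strands, was found in PLK1 and GTSE1, against 12.3% of all windows. In INCENP, PLK1, CDCA8 and GTSE1 the TTTGAA match began between 10 and 29 bases before the start, and in CDCA8 it shares bases with a CCAAT match on the other strand. The match was present in genes that fell (INCENP, BORA) and in genes that did not pass (PLK1, GTSE1, CDCA8), and was not found in NEK2, which fell, or in AURKB, which did not pass. These matches describe the letters of the windows and say nothing of binding.

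The libraries held 36081265 and 34122874 counts in RB-1 replicates 1 and 2, and 34774542 and 37754168 counts in DMSO replicates 1 and 2. Levels are given as CPM, the counts scaled to a common library size with TMM factors. Genes were tested with edgeR's quasi-likelihood test, with p-values adjusted over all 13612 genes tested and called at an adjusted p under 0.05, and all 10 genes passed the filter on low counts. Among all genes tested 28.8% were called, 16.1% lower (2189 genes) and 12.8% higher (1737 genes) in RB-1. Upper-quartile scaling gave 1830 lower and 2171 higher genes and library totals alone 1400 lower and 2059 higher, with the median log2 fold change of all genes shifted by 0.11 and 0.19. MT-CO1 was the most counted gene in each library, at 1.21% and 1.76% of counts in RB-1 and 2.24% and 5.02% in DMSO replicates 1 and 2. The cell line's markers VIM, CD44 and AXL lay at 416 CPM or more in every library, while the epithelial and luminal genes CDH1 and ESR1 stayed under 1 CPM in every library; PGR, GATA3 and FOXA1 lay under 22 CPM in every library and were lower in RB-1.

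For the 10 genes together, 50% were called lower (5 of 10), against 16.1% of all genes tested. Their median log2 fold change was -0.70, against 0.01 over all genes tested. In 8 of the 10 both RB-1 libraries lay below both DMSO libraries, which was the case for 34.3% of all genes tested, and in none did both lie above, against 35.3% of all genes. At an unadjusted p under 0.05 in edgeR 6 of the 10 were lower and 0 higher. The share of all genes at that threshold was not taken. It cannot be under the 16.1% called lower at an adjusted p. DESeq2 and limma-voom called 0 of the 10 higher, against 1900 and 1585 of the 13612 genes tested. The groups overlapped in CDCA8 and BIRC5. In these bulk samples fewer cells in G2 and mitosis and less of a transcript per cell cannot be told apart.

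**Figure D1:**
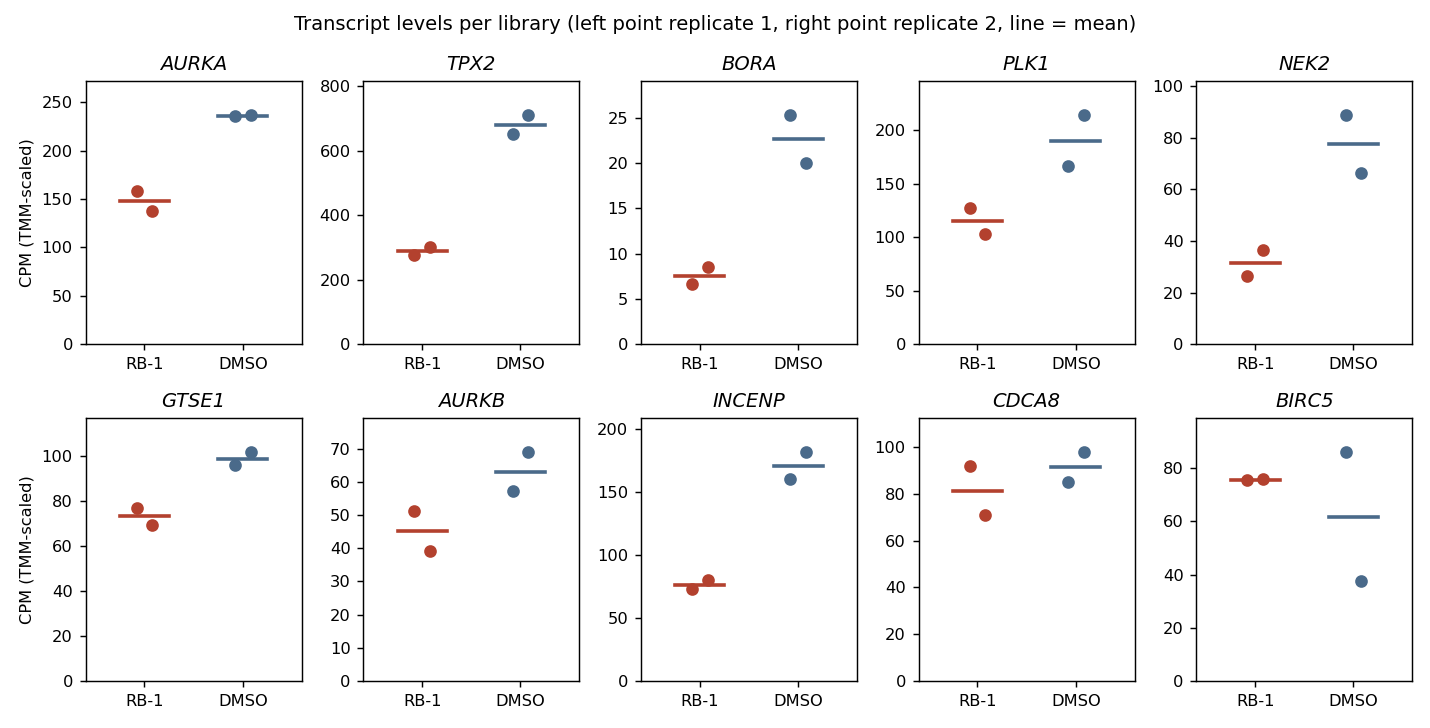
TMM-scaled CPM (y axis, from 0) of the 10 genes in the 2 RB-1 and the 2 DMSO libraries, each point 1 library and each line the group mean. Both RB-1 points lie below both DMSO points in 8 panels, and the groups overlap in CDCA8 and BIRC5.

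All 3 transcripts of the Aurora A module were called lower, the kinase, its activator TPX2 and its cofactor BORA. The values of AURKA and BORA carry limits given below. AURKA (ENSG00000087586, GRCh38 chr20:56369389-56392337, minus strand in GENCODE v29) had 158 and 138 CPM in RB-1, against 235 and 236 CPM in DMSO. The 2 DMSO libraries nearly coincided and both RB-1 libraries lay clearly below them. AURKA fell 1.59-fold (log2 fold change -0.67 ± 0.23 SE, n = 2 each, edgeR adjusted p = 0.0485). This call was close to the threshold and was lost whenever any 1 library was left out, with adjusted p-values of 0.0901 without RB-1 replicate 1, 0.113 without RB-1 replicate 2, 0.167 without replicate 1 of DMSO and 0.21 without its replicate 2, and also with upper-quartile scaling (adjusted p = 0.0814), library totals alone (0.165), no count filter (0.0578) and the replicate block (0.0687). The log2 fold change stayed between -0.78 and -0.48 throughout. In AURKA 6.09% of the 50-base stretches of the longest transcript also occur in annotated transcripts of RAB3GAP2, and 3.46% and 1.82% in the pseudogenes AURKAP1 and AURKAP2.

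TPX2 (ENSG00000088325, chr20:31739271-31801805, plus strand), which targets Aurora A to spindle microtubules and activates it, had 277 and 301 CPM in RB-1, against 652 and 709 CPM in DMSO. It was the most abundant of the 10 transcripts in every library and the groups were far apart relative to their spread. TPX2 fell 2.36-fold (-1.24 ± 0.22 SE, adjusted p = 0.00358), and it was called lower under all 15 alternative settings, with log2 fold changes from -1.30 to -1.04.

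The cofactor BORA (ENSG00000136122, chr13:72727749-72756198, plus strand) had 6.65 and 8.47 CPM in RB-1, against 25.3 and 20.0 CPM in DMSO. It was the least abundant of the 10, at 251 and 317 counts in RB-1 and 881 and 656 counts in DMSO. BORA had the greatest fall of the 10 genes, 2.99-fold (-1.58 ± 0.31 SE, adjusted p = 0.00547), and was called under all 15 alternatives (-1.76 to -1.23). Its value is uncertain, because 37.0% of its exon bases overlap DIS3, an exoribonuclease gene on the opposite strand, and whether reads were counted by strand is not stated in the labels. DIS3 itself had 13.9 and 18.6 CPM in RB-1, against 83.9 and 69.8 CPM in DMSO (-2.24 ± 0.29 SE, adjusted p = 0.00083, and -1.20 with the length and GC correction), and its part in the fall of BORA was not tested.

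PLK1 (ENSG00000166851, chr16:23677656-23690367, plus strand), the Polo-like kinase of mitotic entry, centrosome maturation and cytokinesis, had 127 and 103 CPM in RB-1, against 167 and 214 CPM in DMSO. Both RB-1 libraries lay below both DMSO libraries, with a wide gap between the DMSO libraries. Its log2 fold change was -0.73 ± 0.25 SE (1.66-fold lower), and its adjusted p of 0.0502 in edgeR's quasi-likelihood test missed the threshold by a small margin. It passed with RLE scaling (adjusted p = 0.0486), a stricter count filter (0.0456), DESeq2 (0.0371) and edgeR's legacy fit (0.0484). Of its exon bases 11.6% overlap an unnamed transcript (AC008870.3) on the opposite strand.

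NEK2 (ENSG00000117650, chr1:211658657-211675630, minus strand), the kinase that dissolves the linker between the duplicated centrosomes, had 26.5 and 36.5 CPM in RB-1, against 88.6 and 66.5 CPM in DMSO. The highest RB-1 library was well below the lowest DMSO library. NEK2 fell 2.46-fold (-1.30 ± 0.29 SE, adjusted p = 0.00958). The call was lost without RB-1 replicate 1 (-1.08, adjusted p = 0.0542) and without DMSO replicate 1 (-1.08, adjusted p = 0.0871). Up to 4.61% of its 50-base stretches occur in any 1 other annotated transcript, all of them from pseudogenes or unnamed genes outside the count table.

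GTSE1 (ENSG00000075218, chr22:46296741-46330810, plus strand), a microtubule-associated protein of G2 and mitosis that PLK1 phosphorylates, had 76.6 and 69.4 CPM in RB-1, against 95.9 and 102 CPM in DMSO. The groups did not overlap, but its difference of -0.44 ± 0.24 SE on the log2 scale did not pass (adjusted p = 0.197).

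In the chromosomal passenger complex 1 of the 4 subunits, INCENP, passed the test. INCENP (ENSG00000149503, chr11:62123973-62153163, plus strand), the scaffold that binds and activates Aurora B, had 72.6 and 80.1 CPM in RB-1, against 160 and 181 CPM in DMSO. It fell 2.23-fold (-1.16 ± 0.24 SE, adjusted p = 0.00651), and of its 15 alternatives only leaving out DMSO replicate 2 ended the call (-1.04, adjusted p = 0.0589). AURKB (ENSG00000178999, chr17:8204733-8210600, minus strand), the kinase, had 51.1 and 39.3 CPM in RB-1, against 57.2 and 69.0 CPM in DMSO. The groups did not overlap, and the difference of -0.48 ± 0.27 SE did not pass (adjusted p = 0.21). Of its 15 alternatives 1 called AURKB lower, the length and GC correction in edgeR (-1.08, adjusted p = 0.00585), where INCENP stood at -1.27.

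CDCA8 (ENSG00000134690, chr1:37692418-37709719, plus strand), Borealin, had 91.9 and 71.0 CPM in RB-1, against 85.2 and 98.0 CPM in DMSO. Its groups overlapped, its log2 fold change was -0.17 ± 0.26 SE (adjusted p = 0.647), and the sign turned with library totals alone (0.03) and without RB-1 replicate 2 (0.006). BIRC5 (ENSG00000089685, chr17:78214186-78225636, plus strand), Survivin, had 75.6 and 75.9 CPM in RB-1, against 86.1 and 37.5 CPM in DMSO. The RB-1 libraries coincided and lay between the DMSO libraries, which differed by a larger ratio than in any other of the 10 genes. Its log2 fold change of 0.29 ± 0.36 SE did not pass (adjusted p = 0.569) and depended on which DMSO library was used, at 1.01 (adjusted p = 0.1) without DMSO replicate 1 and -0.16 (0.815) without DMSO replicate 2.

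Ratios of 2 transcripts within a library do not depend on the scaling between libraries, and 5 were compared. TPX2 counts per AURKA count were 1.75 and 2.18 in RB-1, against 2.77 and 3.002 in DMSO, a difference in log2 ratio of -0.56. INCENP counts per AURKB count were 1.42 and 2.04 in RB-1, against 2.79 and 2.63 in DMSO (-0.67). BORA counts per PLK1 count were 0.0524 and 0.0824 in RB-1, against 0.152 and 0.0936 in DMSO (-0.86). The BORA counts are uncertain, because 37.0% of its exon bases overlap DIS3 on the opposite strand. In these 3 ratios the RB-1 libraries lay below the DMSO libraries. CDCA8 counts per AURKB count went the other way, at 1.797 and 1.808 in RB-1 and 1.49 and 1.42 in DMSO (0.31). BIRC5 counts per AURKB count were 1.48 and 1.93 in RB-1, against 1.51 and 0.544 in DMSO, and the groups overlapped. A ratio keeps any trend along transcript length, and TPX2, BORA, INCENP and CDCA8 are longer than the kinase each is set over. With the length and GC correction TPX2 stood at -1.15 and AURKA at -0.78, and BORA at -1.225 and PLK1 at -1.065. INCENP stood at -1.27, AURKB at -1.08 and CDCA8 at -0.36. The gap to the kinase was then smaller in the first 3 pairs and larger for CDCA8. The part of length in the ratios was not tested. In exact two-sided permutation tests the first 4 ratios gave p = 0.333 (0.416 adjusted over the 5 ratios) and BIRC5/AURKB p = 0.667 (0.667 adjusted); 0.333 is the smallest p that 2 against 2 libraries allow, so none could pass.

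**Figure D2:**
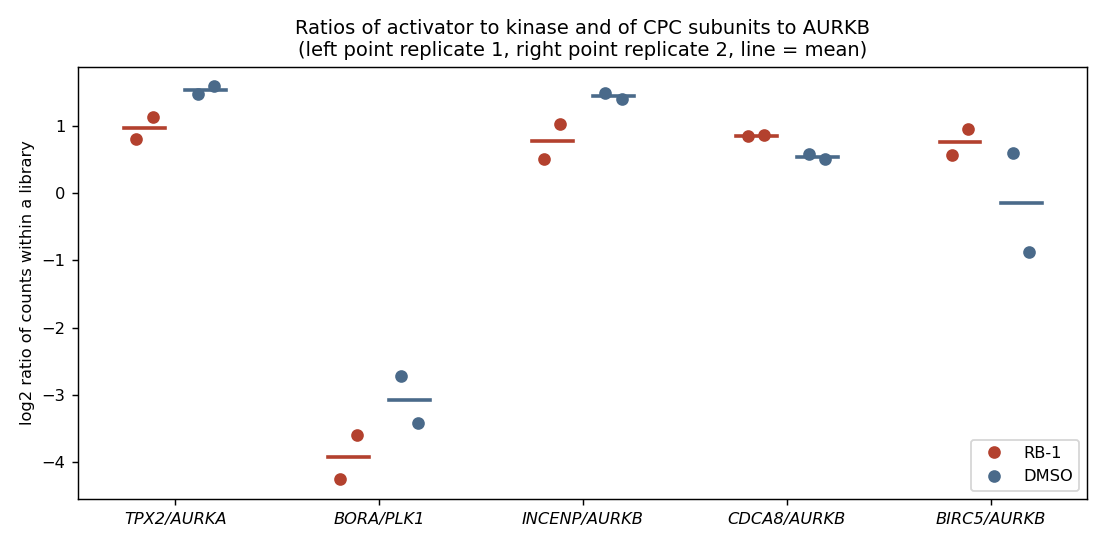
Log2 ratio of the counts of 2 transcripts within each library (y axis), for RB-1 and DMSO, each point 1 library and each line the group mean. TPX2/AURKA, BORA/PLK1 and INCENP/AURKB lie lower in RB-1, and CDCA8/AURKB lies higher. In BIRC5/AURKB the groups overlap and the DMSO libraries lie far apart. The BORA counts are uncertain because its exons overlap DIS3.

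Per kilobase of the longest basic GENCODE transcript, the order of the levels was the same at the top in both groups. TPX2 came first, at a mean of 80.2 in RB-1 and 189 CPM per kb in DMSO, followed by AURKA at 65.9 in RB-1 and 105 in DMSO and PLK1 at 51.6 in RB-1 and 85.4 in DMSO, and the libraries of these 3 neighbours did not overlap within either group. AURKB followed at 36.05 in RB-1 and 50.3 in DMSO. BORA came last, at 2.49 in RB-1 and 7.46 in DMSO. Between them INCENP ranked 8 of 10 in RB-1 at 19.3 CPM per kb and 5 of 10 in DMSO at 43.0 CPM per kb. NEK2 was at 14.8 CPM per kb in RB-1 and 36.4 in DMSO, GTSE1 at 23.5 in RB-1 and 31.7 in DMSO, CDCA8 at 33.0 in RB-1 and 37.1 in DMSO, and BIRC5 at 27.9 in RB-1 and 22.8 in DMSO. In DMSO the libraries of AURKB and INCENP, of CDCA8 and NEK2, of NEK2 and GTSE1 and of GTSE1 and BIRC5 overlapped as neighbours. In RB-1 the ranges of AURKB and CDCA8 overlapped, while INCENP lay below GTSE1 and above NEK2 in both libraries.

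Fold changes in these libraries followed transcript length, so the 10 genes were also read against genes of like length. Over 13596 genes with a length, Spearman's correlation between length and log2 fold change was -0.38, and over the 10 it was -0.12; the genes share the same 4 libraries and their depth, and no p is given. NEK2 and AURKB fall in the shortest quartile of genes (up to 2.14 kb), of which 4.97% were called lower. AURKA, BORA, PLK1, GTSE1, CDCA8 and BIRC5 fall in the next (2.14 to 3.37 kb), with 10.7% called lower, and TPX2 and INCENP in the one after it (3.37 to 5.18 kb), with 17.1%. None falls in the longest quartile, with 31.5%. These shares by quartile come from the fit without a correction. Once trends along length and GC content were removed, 8 of the 10 were called lower, all but CDCA8 and BIRC5. The same correction called 2164 lower and 2283 higher among the 13596 genes. PLK1 then stood at -1.06 (adjusted p = 0.00567), AURKB at -1.08 (0.00585), GTSE1 at -0.55 (0.0424) and AURKA at -0.78 (0.0135), while INCENP (-1.27), TPX2 (-1.15), NEK2 (-1.16) and BORA (-1.23, against -1.58 without the correction) remained called.

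**Figure D3:**
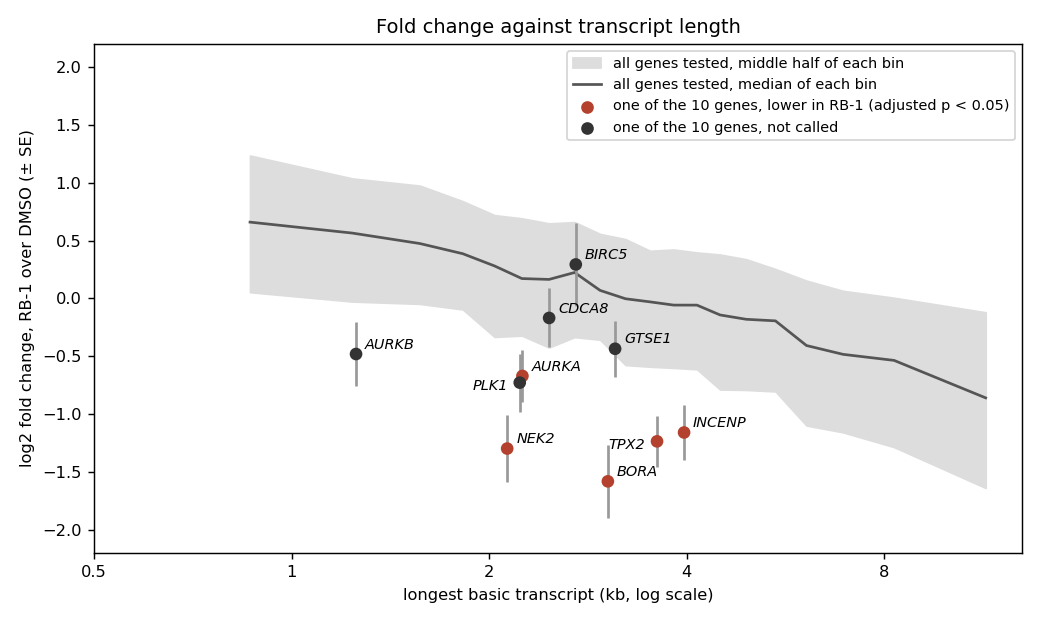
Log2 fold change of RB-1 over DMSO (y axis, bars ± SE) against the length of the longest basic transcript (x axis, kb, log scale) for the 10 genes, over the binned median and interquartile band of all genes tested. The binned median declines with length, and BIRC5 is the only 1 of the 10 above it.

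**Figure D4:**
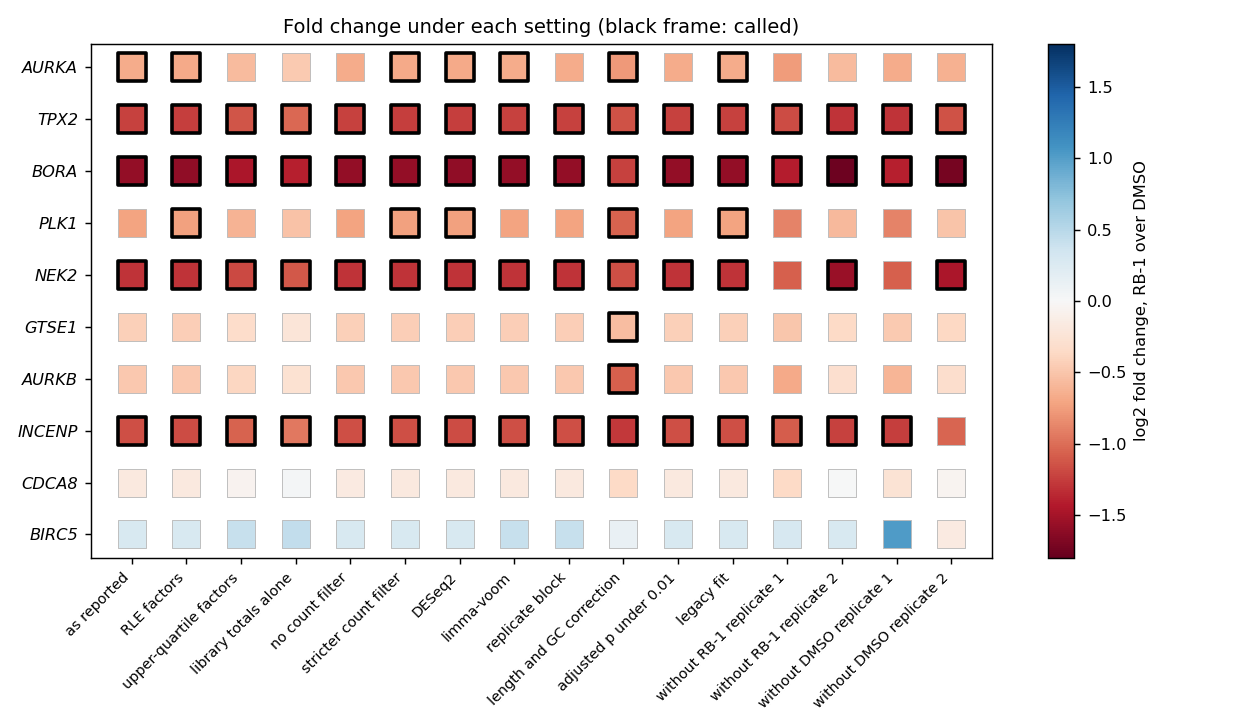
Log2 fold change (colour) of the 10 genes as reported and under the 15 alternatives, with a black frame where the gene was called. TPX2 and BORA are framed throughout, AURKA in 6 of the 15 alternatives, PLK1 in 5, and AURKB and GTSE1 only with the length and GC correction.

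Related genes were read from 4 lists. Among 24 other mitotic kinases and their relatives 9 fell and none rose, 37.5% called lower against 16.1% of all genes, with a median log2 fold change of -0.37. At an unadjusted p under 0.05 in edgeR 10 of them were lower and 2 higher, counts without a share of all genes beside them. DESeq2 and limma-voom called 0 of them higher, against 1900 and 1585 of the 13612 genes tested. TTK, the spindle checkpoint kinase MPS1, had 14.1 and 13.7 CPM in RB-1, against 74.2 and 62.7 CPM in DMSO (-2.30 ± 0.28 SE, adjusted p = 0.0006). BUB1, the kinase that marks centromeres for shugoshin and the passenger complex, had 49.5 and 77.1 CPM in RB-1, against 251 and 193 CPM in DMSO (-1.81 ± 0.29, adjusted p = 0.00199). PLK4, the kinase of centriole duplication, had 10.6 and 16.02 CPM in RB-1, against 63.5 and 41.9 CPM in DMSO (-1.99 ± 0.34, adjusted p = 0.00276). The others that fell were BUB1B (-2.05), which shares 10.2% of its exon bases with the joined gene BUB1B-PAK6, NEK1 (-1.39, and -0.75 with the length and GC correction), the cytokinesis kinase gene CIT (-1.10), MASTL (-0.91), of which 12.2% of exon bases overlap YME1L1 on the opposite strand, VRK1 (-0.85) and PLK2 (-0.78). TTK, BUB1, PLK4 and BUB1B were called under all 15 alternatives, CIT not without RB-1 replicate 1, NEK1 not without replicate 1 of either group or at an adjusted p under 0.01, and PLK2, MASTL and VRK1 not in 6, 8 and 10 of the 15. CDK1, the kinase of mitotic entry, had 103 and 131 CPM in RB-1, against 106 and 89.0 CPM in DMSO (0.26 ± 0.25, adjusted p = 0.463). HASPIN, which phosphorylates histone H3 at the site that Survivin binds, had 41.7 and 36.9 CPM in RB-1, against 49.6 and 44.2 CPM in DMSO (-0.25 ± 0.27, adjusted p = 0.502); 15.3% of its exon bases overlap ITGAE on the opposite strand.

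Among 24 partners and substrates of these kinases 12 fell and 1 rose (50% and 4.17%, against 16.1% lower and 12.8% higher among all genes), with a median of -0.76. CKAP5, the microtubule polymerase that works with the Aurora A substrate TACC3, fell most steeply after the cytokinesis scaffold ANLN (-2.72), with 58.8 and 62.4 CPM in RB-1, against 428 and 353 CPM in DMSO (-2.69 ± 0.24 SE, adjusted p = 0.000171), and stood at -2.03 with the length and GC correction. TACC3 itself overlapped between groups (0.04 ± 0.24). CEP192, the centrosome platform for Aurora A and PLK1, had 7.87 and 14.9 CPM in RB-1, against 46.9 and 37.8 CPM in DMSO (-1.90 ± 0.35, adjusted p = 0.00437), and stood at -1.12 with the length and GC correction (adjusted p = 0.0098). KIF20A, the kinesin that carries the passenger complex to the midzone, had 63.3 and 66.0 CPM in RB-1, against 189 and 183 CPM in DMSO (-1.52 ± 0.24, adjusted p = 0.00179). Of the other genes of the midzone and cytokinesis KIF23 (-1.99), CEP55 (-1.99), ECT2 (-1.88) and PRC1 (-1.10) fell; PRC1 is uncertain because 57.6% of its exon bases also belong to the unnamed gene AC068831.7. SGO2 (4.01-fold lower) and SGO1 (2.48-fold lower), the shugoshins that guard centromeric cohesion, HMMR (-1.89), a spindle protein, and CEP250 (-0.86), the centrosome linker protein that NEK2 phosphorylates, completed those that fell. Of the exon bases of SGO1 17.7% overlap SGO1-AS1 on the opposite strand. SGO1 and CEP250 did not pass without RB-1 replicate 1, DMSO replicate 1 or DMSO replicate 2, nor with library totals alone (adjusted p = 0.0522 for SGO1 and 0.0952 for CEP250). With trends along length and GC content removed CEP250 stood at -0.14 (adjusted p = 0.584). CENPA, the centromeric histone, was the 1 that rose (0.97 ± 0.33, adjusted p = 0.0474), and its call was lost without the same 3 libraries, with limma-voom (adjusted p = 0.0648), with no count filter (0.0619) and with the length and GC correction (0.55, adjusted p = 0.121). DESeq2 called 1 partner higher and limma-voom 0, against 1900 and 1585 of the 13612 genes tested. Of the exon bases of CENPA 6.96% are shared with the counted gene SLC35F6 on the same strand.

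The share called lower among genes that act on the turnover or phosphorylation of the kinases was close to that of all genes. Among 16 genes of their turnover and dephosphorylation 2 fell and none rose (12.5% lower, against 16.1% of all genes), with a median of -0.22. At an unadjusted p under 0.05 in edgeR 3 were lower and 2 higher, counts without a share of all genes beside them. DESeq2 called 1 higher and limma-voom 0, against 1900 and 1585 of the 13612 genes tested. PPP6R3, a regulatory subunit of the phosphatase PP6 that acts on Aurora A, had 50.6 and 69.1 CPM in RB-1, against 153 and 127 CPM in DMSO (-1.22 ± 0.26 SE, adjusted p = 0.00796), and USP7, a deubiquitinase, was the other (-0.77 ± 0.24, adjusted p = 0.0356). Leaving out replicate 1 of either group ended both calls, and leaving out DMSO replicate 2 ended that of USP7. The USP7 call was also lost with upper-quartile scaling (adjusted p = 0.0633), library totals alone (0.132) and the length and GC correction (-0.42, adjusted p = 0.0969). FZR1 and CDC20, which direct the anaphase-promoting complex to the kinases, did not pass (0.34 ± 0.25 and -0.19 ± 0.25, adjusted p = 0.337 and 0.592). CDC20 passed with the length and GC correction (-0.70, adjusted p = 0.0204), and its sign turned without RB-1 replicate 2 (0.04).

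Among 13 genes that regulate transcription late in the cell cycle 4 fell and 1 rose (30.8% and 7.69%, against 16.1% lower and 12.8% higher among all genes), with a median of -0.41. FOXM1, an activator of G2 genes, had 62.3 and 62.4 CPM in RB-1, against 141 and 158 CPM in DMSO (-1.26 ± 0.24 SE, adjusted p = 0.00463), and was called under all 15 alternatives; 15.9% of its exon bases overlap ITFG2 on the opposite strand. Of the MuvB subunits LIN54, which binds the TTTGAA-like element, had 25.5 and 38.1 CPM in RB-1, against 57.4 and 84.4 CPM in DMSO (-1.16 ± 0.31, adjusted p = 0.0206), and LIN9 fell too (-1.33), while LIN37 rose (1.13 ± 0.32, adjusted p = 0.0246), with 41.8% of its exon bases overlapping an unnamed gene on the opposite strand and 26.7% the counted gene AD000671.1 on its own strand. The LIN54 call was lost without RB-1 replicate 1 or DMSO replicate 2, that of LIN9 without replicate 1 of either group, and that of LIN37 without RB-1 replicate 1, DMSO replicate 1 or DMSO replicate 2. With the length and GC correction LIN54 stood at -0.50 (adjusted p = 0.202) and LIN37 at 0.49 (0.174), and neither passed. Library totals alone ended the calls of LIN54 (adjusted p = 0.0609) and LIN9 (0.0503). RBL1, the pocket protein p107, fell (-1.42, and -0.77 with the length and GC correction). MYBL2, which joins MuvB as B-Myb, had 116 and 102 CPM in RB-1, against 118 and 174 CPM in DMSO and did not pass (-0.42 ± 0.26, adjusted p = 0.252), nor did the NF-Y subunit genes NFYA (0.16), NFYB (-0.27) and NFYC (-0.72). MYBL2 passed with the length and GC correction (-0.66, adjusted p = 0.0449).

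**Figure D5:**
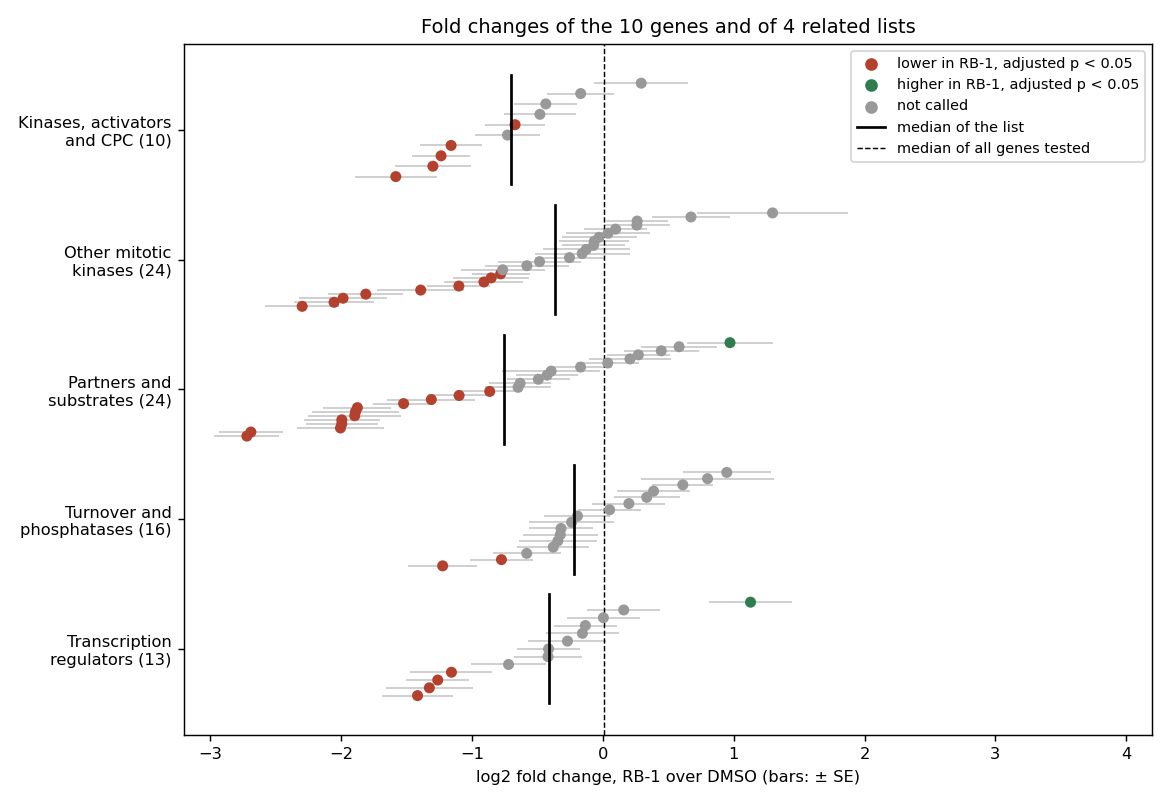
Log2 fold change of RB-1 over DMSO (x axis, bars ± SE) for each of the 10 genes (top row) and for the genes of the 4 lists, coloured by call, with the median of each list as a line and that of all genes tested as a dashed line. The medians run from -0.76 for partners and substrates to -0.22 for turnover and phosphatase genes, and the top row has its median at -0.70.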

How the data were processed

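RNA-seq libraries were prepared by the submitters with an mRNA library kit, per the labels' protocols. The authors deposited raw counts per gene, 1 column per library, for 20263 human Ensembl IDs, without normalization. No aligner, counting tool or strand setting is given in the sources used here. Per the submitters' processing notes the builds were GRCm38 and mm10, both of the mouse, while every ID is human; the coordinates printed are those of GENCODE v29 (GRCh38) and RefSeq (GRCh38.p14), not of the counting.

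Symbols matched 20148 IDs. Replicates differed far beyond sampling noise (chi-square per degree of freedom 128 between RB-1 and 256.6 between DMSO libraries) and were kept apart. Genes passing filterByExpr (13612) were TMM-scaled and tested, RB-1 against DMSO, by edgeR 4.0.16's quasi-likelihood test (R 4.3.3, robust, legacy = FALSE), two-sided, with Benjamini-Hochberg adjustment over all of them; the fit had 2 residual degrees of freedom. The script was tested on simulated counts. SE is the log2 fold change divided by the square root of F.

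Transcript length and GC content came from the longest basic GENCODE transcript. The correction removed a spline trend (5 degrees of freedom each) from every library, group differences along length included. The first RefSeq window of each gene was used for motifs. Alternatives were RLE, upper-quartile and no scaling factors, no filter and a stricter one (50 counts in 2 libraries), DESeq2 1.42.0, limma-voom (limma 3.58.1), the replicate number as a block, the length and GC correction, an adjusted p under 0.01, leaving out each library, and, added after seeing the data, edgeR's legacy fit. All 10 genes are named whatever their values; of the lists, the called genes and 11 fixed ones are named, and NFYA, NFYB, NFYC, TACC3 and DIS3 were added after their values were seen. The genes and lists were chosen with earlier results of these data known.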

Additional observations from a re-analysis of the deposited data

How the results depend on the processing

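The count of 5 of the 10 genes called lower became 3 to 4 with 1 library left out and 8 with the length and GC correction; none of the 10 was called higher under any of the 15 alternatives. Over all genes, leaving out 1 library gave 1065 to 2443 lower and 522 to 1955 higher, library totals alone gave 1400 lower, and an adjusted p under 0.01 gave 1067 lower and 513 higher. With 1 library left out 4 to 8 other mitotic kinases, 0 to 4 turnover and phosphatase genes and 2 to 5 transcription regulators were called, against 9, 2 and 5; at an adjusted p under 0.01 the numbers were 5, 1 and 2, and library totals alone left 3 transcription regulators. Partners and substrates, left out of these counts, had 10 called at an adjusted p under 0.01 and 11 with library totals alone, against 13. Over all genes the length and GC correction gave 2164 lower and 2283 higher. The cause of these differences was not tested. Of the 29 genes called in the 4 lists, 16 were called under all 15 alternatives. The log2 ratios kept their sign without each library, from -0.72 to -0.40 for TPX2/AURKA, -1.21 to -0.51 for BORA/PLK1, -0.93 to -0.41 for INCENP/AURKB, 0.27 to 0.34 for CDCA8/AURKB and 0.17 to 1.64 for BIRC5/AURKB.

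The replicate block, which takes same-numbered libraries as pairs, gave 2314 lower and 1741 higher genes and 4 of the 10 genes lower. The labels do not say that a number marks a shared culture or day, and over 13612 genes the difference between replicates 1 and 2 correlated at -0.12 between RB-1 and DMSO. A group left with 1 library was assumed to vary like the other group. With 2 libraries a group, a gene that did not pass may still have changed. The lowest count among the 10 genes was 251, for BORA in RB-1.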
